A study of Mus musculus with 10 samples.

Results

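Lysosomes are acidic compartments in which proteins, glycans and lipids delivered by endocytosis and autophagy are broken down. Their proteases, among them the cathepsins and legumain, and their glycosidases are made as precursors, are sorted from the Golgi and work best at the low pH that the vacuolar ATPase maintains. In skeletal muscle the autophagy-lysosome pathway is one of the main routes by which fibres turn over their proteins and organelles, and cathepsin L is a long-known marker of muscle wasting. The values of 8 genes of this compartment are described here: Ctsl, Ctsb, Ctsa and Lgmn (peptidases), Hexa and Gusb (glycosidases), Npc2 (a cholesterol carrier) and Lamp1 (the abundant membrane glycoprotein). They were taken by gene name, and each was found once among the 3480 genes of the deposited table.

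Bulk RNA-seq was performed on tibialis anterior (TA), a fast muscle of the lower leg, from 5 FoxP1iSkmTg and 5 Control mice. FoxP1iSkmTg mice carried the FoxP1flSTOP allele, from which FoxP1 is made once a floxed stop is removed, and HSA-MerCreMer, a tamoxifen-activated Cre driven by the human skeletal actin promoter. Control mice carried FoxP1flSTOP alone. All were females of 13 to 18 weeks, and both genotypes received tamoxifen at 80 mg/kg on 4 days, with muscles taken days after the last dose and in the morning hours. No group had HSA-MerCreMer without the FoxP1flSTOP allele, so that added Foxp1 and an activated Cre cannot be told apart in any difference below. The comparison asks which genes differ in muscle when this forkhead repressor, studied for its induction in cancer cachexia, is switched on.

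Foxp1 itself had 5352, 2163, 5813, 1423 and 1289 normalized counts in FoxP1iSkmTg replicates 1 to 5, against 371.0, 231.7, 389.9, 270.3 and 259.9 in Control replicates 1 to 5. Every FoxP1iSkmTg mouse was thus above every Control mouse (log2 fold change 3.39 ± 0.44 (SE), edgeR adjusted p = 0.000631), with replicates 1 and 3 far above the other FoxP1iSkmTg mice. These mice were the 2 lowest or the 2 highest of their group in 46.3% of the other tested genes (1442 of 3114), and among the 8 genes they were lowest for Ctsl, Lgmn and Lamp1 and highest for Ctsa and Npc2, so that such a place is nothing particular to one gene. The listed genes held 6620970 to 8737660 counts per library. Genes of the muscle fibre had high counts, as the tissue label asks. The 10 of 18 that were listed had sums of 1021990 to 1155790 normalized counts in FoxP1iSkmTg and 1305180 to 1565360 in Control muscle. All 10 had negative log2 fold changes (-0.95 to -0.16). Of the 10, 5 passed an edgeR adjusted p of 0.05 as lower, beside 19.8% of all tested genes. The table holds a selection, made by the authors on the p of their own test before adjustment (under 0.05), so a gene's presence in it already reflects this contrast. In a fit of all its genes, 1161 of the 3115 with enough counts passed an adjusted p of 0.05 (37.3%), 544 of them higher (17.5%) and 617 lower (19.8%) in FoxP1iSkmTg, which is 7.33% of the 15846 genes behind the adjustment. With TMM scaling the balance turned, at 703 higher and 545 lower, while 4 of the 8 genes passed as before. TMM was computed on the selected genes alone, where it cannot assume that most genes are unchanged, so this turn is no measure of the true balance. The groups did not overlap for 1316 genes (42.2%).

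The promoter sequences are shown first because the motif in capitals, CACGTG, is an E-box that is the core of the element bound by TFEB and TFE3, the factors known for activating lysosomal genes, and is also read by the clock factors. RefSeq promoters (GRCm38.p6, the same assembly as mm10; 250 bases before to 50 after each start) were matched for 7 of the 8 genes, all but Ctsb, and 4 held the motif. The windows are given 5′ to 3′ on the gene's strand, from the only RefSeq start used for Ctsl (minus strand, chr13:64370739-64370768) and Lamp1 (plus strand, chr8:13159088-13159160, ending at the base before the start), and from the second of the starts of Ctsa (plus strand, chr2:164833749-164833772, also ending before the start) and Lgmn (minus strand, chr12:102439124-102439153). The windows of Ctsl, Ctsa and Lgmn lie inside the genes as annotated in the deposited table (Ctsl to 64370890), so they are upstream only of the RefSeq start used.
Ctsl: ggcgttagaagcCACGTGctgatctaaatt
Ctsa: tgagcaaactgtCACGTGatgcag
Lgmn: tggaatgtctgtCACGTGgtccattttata
Lamp1: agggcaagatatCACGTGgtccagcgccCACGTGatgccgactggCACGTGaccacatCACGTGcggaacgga
Lamp1 had 4 copies, a number reached by 8 of all 32851 promoters, and Ctsa had another copy just after the start. CACGTG, which reads the same on both strands, occurred in 7.15% of all promoters and in at least one promoter of 11.3% of the tested genes that had one. The longer GTCACGTG was searched on both strands and always overlapped the shorter motif. It occurred in 2.25% of promoters, in 4.79% of the tested genes with a promoter, and in Ctsa, Lgmn and Lamp1. The forkhead motif TGTTTAC, searched on both strands, occurred in 3.65% of promoters, in 3.22% of the tested genes and in none of these 7 genes. The related TGTTTGC occurred in 5.07% of promoters, in 4.66% of the tested genes and once in these genes, 132 bases before the first start of Ctsa. A match describes the letters in this window only and shows no binding.

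The 8 genes did not move as a group. Lgmn and Ctsa were higher in FoxP1iSkmTg muscle and Ctsl and Ctsb were lower, while Hexa, Gusb, Npc2 and Lamp1 did not pass the test. The 4 of 8 that passed (50%) stand beside 37.3% of all tested genes, and since all 8 were listed because of this contrast, the count is given as a description only. Their log2 fold changes ran from -0.53 to 0.69 with a median of 0.24, beside a median of 0.13 over all tested genes. The 4 genes that passed were also the 4 whose groups did not overlap, beside 42.2% of all tested genes. In whole muscle, fewer cells of a type and less RNA per cell cannot be told apart.

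**Figure D1:**
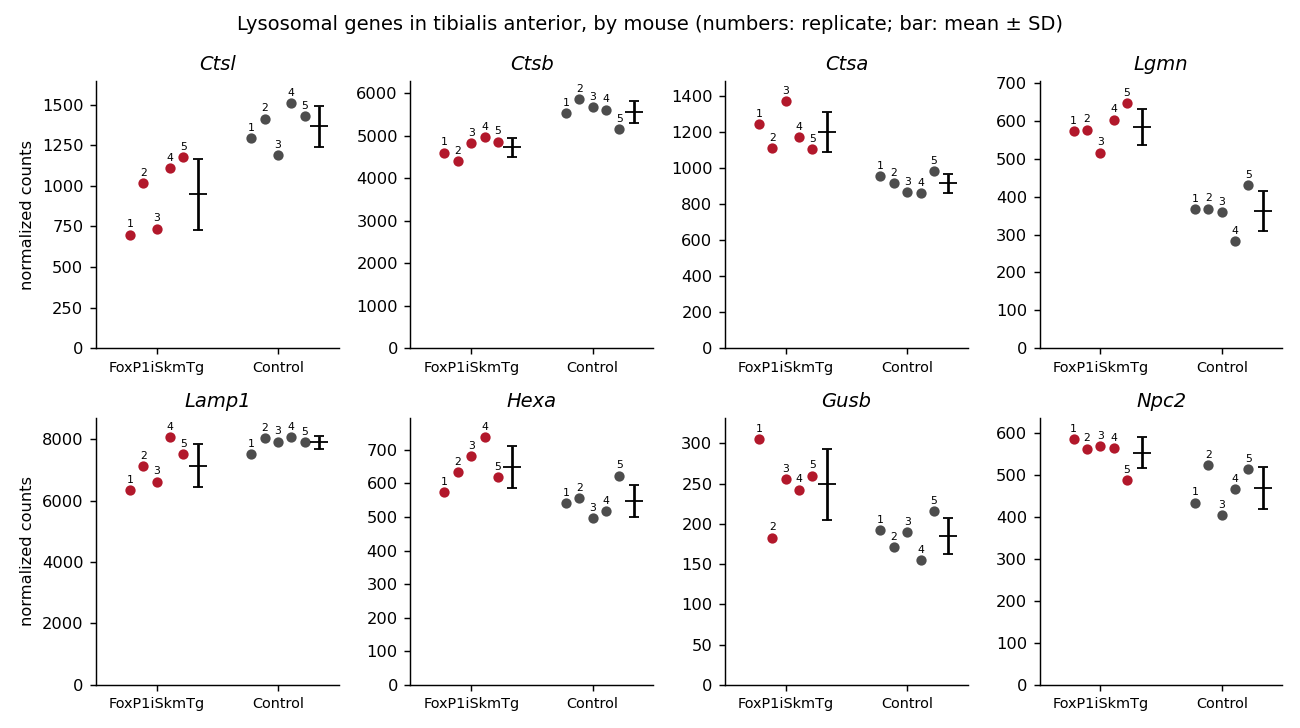
Normalized counts (vertical axes, starting at 0) of the 8 genes in each mouse, FoxP1iSkmTg on the left and Control on the right of each panel; points are mice numbered by replicate and bars are the mean ± SD of 5 mice. All FoxP1iSkmTg points lie above all Control points for Lgmn and Ctsa and below them for Ctsl and Ctsb, and the groups overlap in the other 4 panels.

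Lgmn encodes legumain, the endopeptidase that cuts after asparagine and processes cathepsins to their mature forms (mm10 chromosome 12, 102394084 to 102439813, minus strand). It had 574.1, 577.5, 517.1, 604.2 and 648.0 normalized counts in FoxP1iSkmTg replicates 1 to 5, against 368.2, 368.7, 359.4, 283.4 and 431.6 in Control replicates 1 to 5. The lowest FoxP1iSkmTg mouse was above the highest Control mouse, and both ends of the Control range (replicates 4 and 5) lay apart from the 3 mice between them. Lgmn averaged 584.2 ± 47.7 in FoxP1iSkmTg and 362.3 ± 52.7 in Control muscle (SD, n = 5 each), 1.61-fold higher (log2 fold change 0.69 ± 0.10 (SE), edgeR adjusted p = 0.00175). It was the largest change among the 8 genes, it passed under all 17 alternatives, and no annotated gene overlapped it.

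Ctsa encodes cathepsin A, a serine carboxypeptidase that also protects beta-galactosidase and neuraminidase in a complex (chromosome 2, 164832873 to 164841032, plus strand). It had 1248, 1114, 1376, 1172 and 1106 normalized counts in FoxP1iSkmTg replicates 1 to 5, against 955.8, 918.9, 868.4, 863.4 and 984.6 in Control replicates 1 to 5. Again no Control mouse reached the lowest FoxP1iSkmTg mouse. Means were 1203 ± 112 and 918.2 ± 53.2 (FoxP1iSkmTg and Control, SD, n = 5 each), 1.31-fold higher (log2 fold change 0.39 ± 0.07 (SE), edgeR adjusted p = 0.00726), and the gene passed under all 17 alternatives. Of its 4715 exonic bases, 324 (6.87%) are shared with Neurl2 on the opposite strand. Pltp, also on the opposite strand, overlaps exons of Ctsa as well, and the bases shared with it were not counted. Strand-specific counting is neither stated nor denied in the sources, so reads of such a stretch may have gone to either gene. Neurl2 had 291.3 to 326.5 normalized counts in FoxP1iSkmTg and 187.6 to 274.0 in Control muscle (log2 fold change 0.35, edgeR adjusted p = 0.0590), and its part in the Ctsa values was not tested. Glb1, the beta-galactosidase of the same complex, had a positive log2 fold change of 0.61 without passing the test (edgeR adjusted p = 0.136).

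Ctsl encodes cathepsin L, a cysteine endopeptidase (chromosome 13, 64359337 to 64370890, minus strand). It had 699.5, 1015, 736.6, 1108 and 1177 normalized counts in FoxP1iSkmTg replicates 1 to 5, against 1293, 1414, 1189, 1512 and 1430 in Control replicates 1 to 5. All FoxP1iSkmTg mice were below all Control mice, by a narrow margin at the nearest pair (FoxP1iSkmTg replicate 5 and Control replicate 3). Ctsl averaged 947.1 ± 217 in FoxP1iSkmTg and 1368 ± 127 in Control muscle (SD, n = 5 each), 1.44-fold lower (log2 fold change -0.53 ± 0.14 (SE), edgeR adjusted p = 0.0407). The call was close to the threshold and held in 3 of the 10 omissions of 1 mouse. It was lost without FoxP1iSkmTg replicate 1 (adjusted p = 0.0720), 2 (0.0633) or 3 (0.0814) and without Control replicate 1 (0.0679), 2 (0.0895), 4 (0.0964) or 5 (0.0854), with log2 fold changes of -0.62 to -0.44 over all 10 omissions. Over these omissions 835 to 1229 of all tested genes passed, beside 1161 with every mouse. Without FoxP1iSkmTg replicate 2 or Control replicate 1 the log2 fold change was larger in size (-0.56 and -0.55), so a lost call need not mark a particular mouse. An annotated antisense gene and a processed pseudogene, Gm47123 and Gm49230, overlap Ctsl, so some of its reads could be assigned otherwise.

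Ctsb encodes cathepsin B, a cysteine protease with both endopeptidase and exopeptidase activity (chromosome 14, 63122462 to 63145923, plus strand). It had 4607, 4397, 4825, 4964 and 4868 normalized counts in FoxP1iSkmTg replicates 1 to 5, against 5536, 5864, 5679, 5620 and 5166 in Control replicates 1 to 5. No FoxP1iSkmTg mouse reached the lowest Control mouse, replicate 5. The difference was small, with means of 4732 ± 228 in FoxP1iSkmTg and 5573 ± 258 in Control muscle (SD, n = 5 each), 1.18-fold lower (log2 fold change -0.24 ± 0.06 (SE), edgeR adjusted p = 0.0226). Omitting single mice ended this call too, without FoxP1iSkmTg replicate 1 (adjusted p = 0.0509) or 2 (0.0590) and without Control replicate 1 (0.0503), 2 (0.0644), 3 (0.0519) or 4 (0.0556), while the log2 fold change stayed between -0.26 and -0.21. Ctsb shares 774 of its 6051 exonic bases (12.8%) with Fdft1, squalene synthase, on the opposite strand. Fdft1 had 354.4, 697.2, 426.5, 1076 and 1235 normalized counts in FoxP1iSkmTg replicates 1 to 5 and 1105 to 1320 in Control mice (log2 fold change -0.73, edgeR adjusted p = 0.170), and its part in the Ctsb values was not tested.

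The glycosidases had positive fold changes and overlapping groups. Hexa, the alpha subunit of beta-hexosaminidase that degrades GM2 ganglioside (chromosome 9, 59539540 to 59565109, plus strand), had 575.0, 634.1, 682.0, 738.8 and 619.7 normalized counts in FoxP1iSkmTg replicates 1 to 5, against 542.2, 555.9, 496.4, 517.6 and 623.3 in Control replicates 1 to 5. Only Control replicate 5 reached into the FoxP1iSkmTg range. Means were 649.9 ± 62.7 in FoxP1iSkmTg and 547.1 ± 48.3 in Control muscle (SD, n = 5 each; log2 fold change 0.25 ± 0.08 (SE), edgeR adjusted p = 0.107). Gusb, beta-glucuronidase, an enzyme of glycosaminoglycan breakdown often used as a housekeeping gene (chromosome 5, 129989011 to 130003049, minus strand), had 305.6, 182.9, 255.5, 242.5 and 260.0 normalized counts in FoxP1iSkmTg replicates 1 to 5, against 192.4, 171.2, 189.7, 155.4 and 215.8 in Control replicates 1 to 5. FoxP1iSkmTg replicate 2 was the one mouse of its group inside the Control range, and the other 4 lay above all Control mice. Means were 249.3 ± 44.1 in FoxP1iSkmTg and 184.9 ± 22.9 in Control muscle (SD, n = 5 each; log2 fold change 0.43 ± 0.13 (SE), edgeR adjusted p = 0.0784). Without FoxP1iSkmTg replicate 2 the gene passed, at a log2 fold change of 0.52 (adjusted p = 0.0225), and it also passed in DESeq2 (adjusted p = 0.0382).

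Npc2, the soluble protein that hands cholesterol to NPC1 inside the lysosome (chromosome 12, 84754562 to 84773152, minus strand), had 585.9, 563.6, 568.6, 564.0 and 488.7 normalized counts in FoxP1iSkmTg replicates 1 to 5, against 434.9, 525.1, 405.7, 467.2 and 514.9 in Control replicates 1 to 5. The values of 4 FoxP1iSkmTg mice were almost level and above every Control mouse, and replicate 5 lay among the Control values. Means were 554.2 ± 37.7 in FoxP1iSkmTg and 469.6 ± 51.0 in Control muscle (SD, n = 5 each; log2 fold change 0.24 ± 0.09 (SE), edgeR adjusted p = 0.124). Lamp1, which lines the inner face of the lysosomal membrane (chromosome 8, 13159161 to 13175338, plus strand), had 6346, 7139, 6623, 8085 and 7510 normalized counts in FoxP1iSkmTg replicates 1 to 5, against 7531, 8053, 7929, 8085 and 7915 in Control replicates 1 to 5. The Control mice were close together and the FoxP1iSkmTg mice spread, 4 of them below the lowest Control mouse and replicate 4 level with the highest. Means were 7140 ± 694 in FoxP1iSkmTg and 7903 ± 221 in Control muscle (SD, n = 5 each; log2 fold change -0.15 ± 0.07 (SE), edgeR adjusted p = 0.274). Lamp1 did not pass under any of the 17 alternatives. Grtp1 on the opposite strand overlaps Lamp1, as Tmem202 overlaps Hexa, and the part of these neighbours in the values was not tested.

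Levels were compared between genes per length, in the deposited FPKM. In FoxP1iSkmTg muscle Lamp1 was highest (151 ± 15 FPKM, SD, n = 5), followed by Ctsb (44.2 ± 2.1), Hexa (18.4 ± 1.8), Ctsa (14.4 ± 1.3), Lgmn (14.2 ± 1.2), Ctsl (8.25 ± 1.9), Npc2 (5.76 ± 0.39) and Gusb (3.10 ± 0.55). In Control muscle the order was Lamp1 (167 ± 4.7 FPKM, SD, n = 5), Ctsb (52.1 ± 2.4), Hexa (15.5 ± 1.4), Ctsl (11.9 ± 1.1), Ctsa (11.0 ± 0.63), Lgmn (8.82 ± 1.3), Npc2 (4.88 ± 0.53) and Gusb (2.30 ± 0.28). Both orders differed in the place of Ctsl alone: it stood beside Ctsa in Control muscle, with overlapping mice, and below every mouse's value of Ctsa and Lgmn in FoxP1iSkmTg muscle. The neighbours Ctsa and Lgmn overlapped in both groups, and so did Hexa and Ctsa in FoxP1iSkmTg muscle, where the lowest Hexa value was 16.3 FPKM and the highest Ctsa value 16.5 FPKM. Lamp1 and Ctsb did not overlap with the gene below them in either group, nor did Npc2 with Gusb. Added over the 8 genes, FoxP1iSkmTg mice had 239 to 285 FPKM and Control mice 265 to 280 FPKM, so that the sum, most of it Lamp1, did not separate the groups.

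Ratios of counts within a library do not depend on scaling and were used to ask whether Ctsl, Ctsb and Lamp1, the 3 genes with negative fold changes, changed alike. These genes were chosen by the sign of their fold changes in the same mice, and the adjustment covers only the 3 ratios tested. The p-values of the ratios are therefore given as description only. The ratio of Ctsl to Lamp1 was 0.110, 0.142, 0.111, 0.137 and 0.157 in FoxP1iSkmTg replicates 1 to 5, against 0.172, 0.176, 0.150, 0.187 and 0.181 in Control replicates 1 to 5. Only FoxP1iSkmTg replicate 5 and Control replicate 3 overlapped, and the mean log2 ratio was lower by 0.41 in FoxP1iSkmTg (exact permutation test, two-sided, p = 0.0159, 0.0476 after adjustment over the 3 ratios tested, where 0.00794 is the smallest p that 5 against 5 mice allow). Counts of Ctsl were thus lower relative to those of Lamp1. With 1 mouse left out, 0.0159 is the smallest exact permutation p possible, so the call could be kept only where the groups did not overlap. It was kept without FoxP1iSkmTg replicate 5 or Control replicate 3, the overlapping pair. It was lost, at an adjusted exact permutation p of 0.0952, without FoxP1iSkmTg replicate 1, 2, 3 or 4 and without Control replicate 1, 2, 4 or 5. The difference was then -0.44 to -0.35, and these losses do not single out any of those mice. The mean log2 ratio of Ctsb to Lamp1 differed by -0.08 (exact permutation p = 0.206, adjusted p = 0.206) and that of Ctsl to Ctsb by -0.32 (exact permutation p = 0.103, adjusted p = 0.155), neither of which passed. For Ctsl to Ctsb, the FoxP1iSkmTg mice fell into 2 low values (0.152 and 0.153, replicates 1 and 3) and 3 values within the Control range (0.223 to 0.242, against 0.209 to 0.277 in Control mice).

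**Figure D2:**
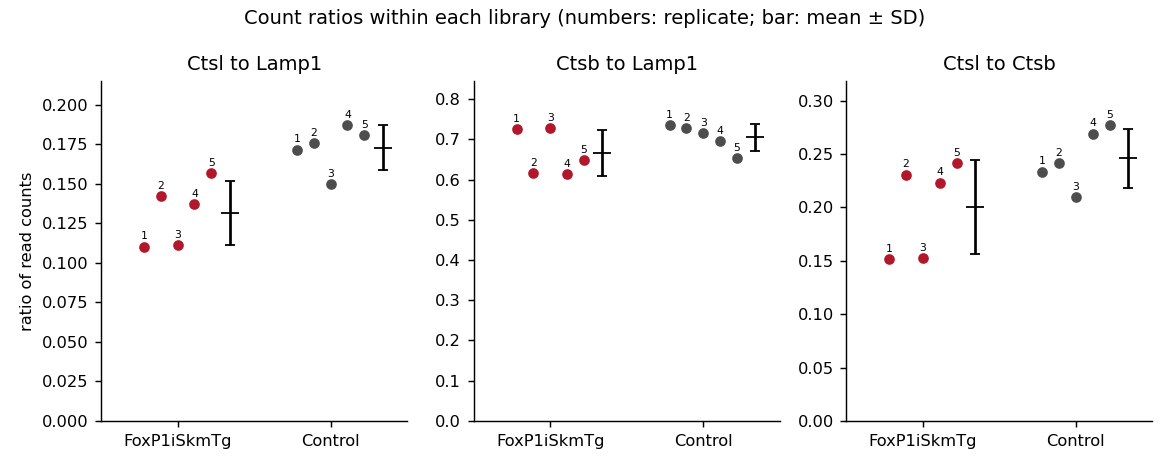
Ratio of read counts of a pair of genes in each library (vertical axes, no unit, starting at 0), FoxP1iSkmTg on the left and Control on the right; points are mice numbered by replicate, bars the mean ± SD of 5 mice. Ctsl to Lamp1 lies at 0.110 to 0.157 in FoxP1iSkmTg and 0.150 to 0.187 in Control mice, whereas the groups overlap widely for Ctsb to Lamp1.

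The other genes of the compartment were taken from lists of 157 genes by role. Of these, 36 were in the table, beside 3480 of the 15846 genes behind the adjustment, and 35 had enough counts (Rnaset2a did not). Of these, 2 were higher (Atp6v0a1 and Gnptab), 5 were lower (Ctsc, Hgsnat, Atp6v1g1, Tfeb and Rragd) and 28 did not pass, so that 20% passed beside 37.3% of all tested genes, with a median log2 fold change of 0.18 beside 0.13. The 121 genes not in the table, which include Ctsd, Lamp2, Gaa and Npc1, were not analysed here. Genes were listed by the authors' unadjusted p, so counts of listed genes, here and by role below, are description only and do not measure expression.

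Among the other proteases, 2 of 15 were listed. Ctsc, the dipeptidyl peptidase cathepsin C that activates granule serine proteases, had 343.5, 434.2, 346.1, 388.3 and 418.2 normalized counts in FoxP1iSkmTg replicates 1 to 5, against 537.6, 560.5, 515.3, 505.5 and 497.8 in Control replicates 1 to 5. It was lower with no overlap of the groups (log2 fold change -0.44 ± 0.08 (SE), edgeR adjusted p = 0.00639) and passed under all 17 alternatives. The carboxypeptidase Scpep1 had a log2 fold change of 0.44 and did not pass (edgeR adjusted p = 0.125). Of 28 further genes, mostly glycosidases, sulfatases and acid hydrolases, 4 were listed and 3 tested. Hgsnat, which is not itself a hydrolase, acetylates heparan sulfate for its breakdown. It averaged 451.9 ± 45.6 in FoxP1iSkmTg and 585.9 ± 39.0 normalized counts in Control muscle (SD, n = 5 each) and was lower (log2 fold change -0.37 ± 0.08 (SE), edgeR adjusted p = 0.0158). The acid ribonuclease Rnaset2b had -0.84 (adjusted p = 0.0950) and Glb1 the value given above. The 3 listed genes of lipid handling all had negative log2 fold changes and none passed: -0.16 for the sphingomyelinase Smpd1 (edgeR adjusted p = 0.116), -0.47 for the phospholipase Pla2g15 (0.109) and -0.79 for Pla2g7 (0.100), a platelet-activating factor acetylhydrolase that is largely secreted.

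The vacuolar ATPase, the proton pump of the lysosome, had 5 of its 22 genes listed, with subunits on both sides of 0. Atp6v0a1, of the membrane-bound part, averaged 2217 ± 198 in FoxP1iSkmTg and 1675 ± 194 normalized counts in Control muscle (SD, n = 5 each) and was higher (log2 fold change 0.40 ± 0.09 (SE), edgeR adjusted p = 0.0169). Atp6v1g1, of the soluble part, had 1380, 2091, 1373, 1958 and 2027 normalized counts in FoxP1iSkmTg replicates 1 to 5 and averaged 1766 ± 358 there and 2521 ± 239 in Control muscle (SD, n = 5 each). It was lower (log2 fold change -0.51 ± 0.13 (SE), edgeR adjusted p = 0.0307). This call was lost without FoxP1iSkmTg replicate 1 (adjusted p = 0.0609) or 3 (0.0570) and without Control replicate 1 (0.0764), 2 (0.0764), 4 (0.0658) or 5 (0.0631). The other 3 subunits had log2 fold changes of 0.20 to 0.22 and did not pass (Atp6v1b2, edgeR adjusted p = 0.0753; Atp6v0c, 0.254; Atp6v0a2, 0.260). Membrane proteins other than Lamp1 had 3 of 24 genes listed, and none passed: the lipid transporter Abca2 had a log2 fold change of 0.58 (edgeR adjusted p = 0.0607), Laptm4b 0.36 (0.110) and Laptm4a -0.13 (0.228).

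Of 24 genes that sort hydrolases to the lysosome, 6 were listed. Gnptab, the enzyme that starts the mannose 6-phosphate tag on newly made hydrolases, averaged 453.4 ± 48.7 in FoxP1iSkmTg and 353.5 ± 33.1 normalized counts in Control muscle (SD, n = 5 each), with overlapping groups (log2 fold change 0.36 ± 0.09 (SE), edgeR adjusted p = 0.0365). Its call was lost without FoxP1iSkmTg replicate 1 (adjusted p = 0.0879), 2 (0.0633), 4 (0.0711) or 5 (0.0578) and without Control replicate 2 (0.0911), 4 (0.0859) or 5 (0.0861). The receptor for that tag, Igf2r, had a log2 fold change of 0.34 (edgeR adjusted p = 0.0944), the adaptor subunit Ap3b1 0.25 (0.0790) and the sorting receptor sortilin, Sort1, -0.45 (0.119). Of 9 inhibitors of cathepsins and legumain, 3 were listed and none passed: cystatin C (Cst3) had a log2 fold change of -0.36 (edgeR adjusted p = 0.0652), cystatin B (Cstb) 0.55 (0.134) and cystatin E/M (Cst6), an inhibitor of legumain, -0.23 (0.175).

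Regulators of lysosomal genes had 10 of 22 listed. Of these 10, 2 passed, both lower, and 8 did not, beside 37.3% of all tested genes that passed. The log2 fold change was positive for 6 of the 10, with a median of 0.18. Tfeb, the transcription factor that activates lysosome and autophagy genes, had 1167, 1384, 1198, 1416 and 1343 normalized counts in FoxP1iSkmTg replicates 1 to 5, against 1887, 1936, 1671, 1913 and 1726 in Control replicates 1 to 5. The groups lay well apart, with means of 1301 ± 112 in FoxP1iSkmTg and 1827 ± 120 in Control muscle (SD, n = 5 each; log2 fold change -0.49 ± 0.07 (SE), edgeR adjusted p = 0.00178), and the call held under all 17 alternatives. Rragd, a GTPase that brings mTORC1 to the lysosome and is itself a TFEB target, averaged 5027 ± 400 in FoxP1iSkmTg and 6159 ± 351 normalized counts in Control muscle (SD, n = 5 each) and was lower (log2 fold change -0.29 ± 0.07 (SE), edgeR adjusted p = 0.0194). That call was lost without Control replicate 3 (adjusted p = 0.0502) or 4 (0.0506). Tfe3, the close relative of Tfeb, had a log2 fold change of 0.32 (edgeR adjusted p = 0.119), Mtor 0.27 (0.101) and Foxo4 -0.18 (0.132), and none of them passed. Of the members with a CACGTG promoter, Lgmn and Ctsa were higher, Ctsl was lower and Lamp1 (log2 fold change -0.15) did not pass. In the other lists the motif was found for Glb1, Igf2r, Fnip1 and Lamtor1. This makes 8 of the 33 listed lysosomal genes with a RefSeq promoter, beside 11.3% of the tested genes with a promoter. Of the 35 other lysosomal genes tested, 20 had positive log2 fold changes. Those of Glb1, Igf2r, Fnip1 and Lamtor1 were all positive (0.61, 0.34, 0.26 and 0.20), and none of these genes passed. The part of Tfeb in these values was not tested.

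**Figure D3:**
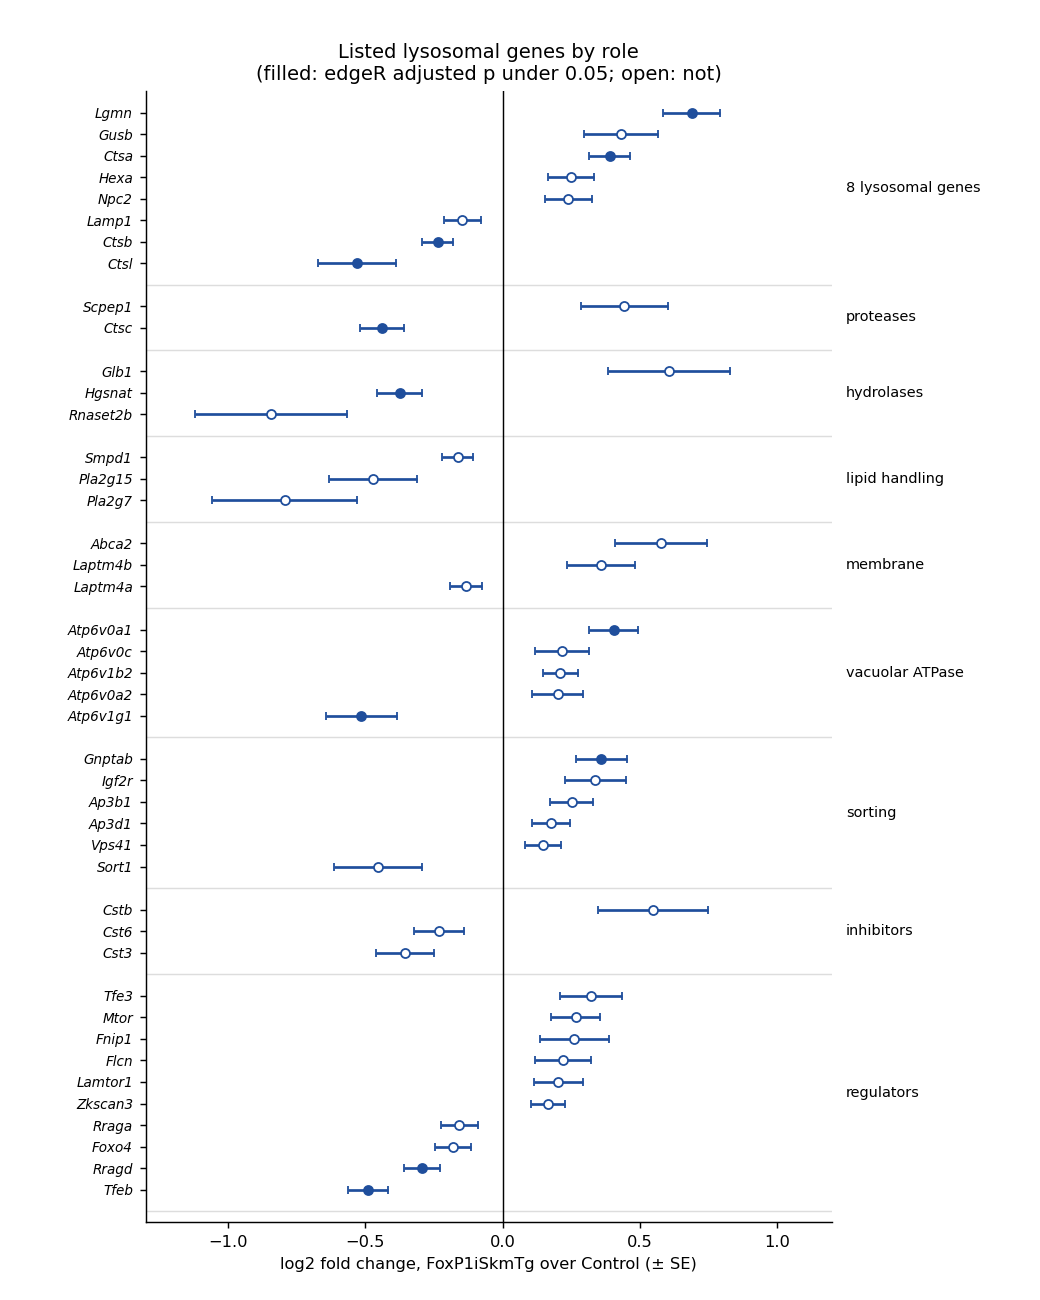
Log2 fold change, FoxP1iSkmTg over Control (horizontal axis), with its standard error for the 8 genes and for the 35 other lysosomal genes, grouped by role; filled points passed an edgeR adjusted p of 0.05 and open points did not. Filled points lie on both sides of 0 among the 8 genes and in the vacuolar ATPase, and the filled regulators, Tfeb and Rragd, lie to the left.

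Likeness between genes was measured as the root mean square difference, over the 10 mice, of the log2 normalized count relative to the Control mean, among 2507 genes with a mean of at least 100 normalized counts. The nearest gene was Gng5 for Ctsl (0.0873), Rdh14 for Ctsb (0.0525), Preb for Ctsa (0.0437) and Hmgn2 for Lgmn (0.128). It was Tcea3 for Lamp1 (0.0510), Dynlrb1 for Hexa (0.0744), Ppp2r5d for Npc2 (0.0759) and Borcs7 for Gusb (0.149). None of these 8 nearest genes was another of the 8 or from the lysosomal lists. The lists do not hold every gene linked to the lysosome, and Borcs7, a subunit of the BLOC-1 related complex, was not on them. Absence from the lists is thus no statement that a nearest gene has no part in the lysosome. Within the 8, Ctsb and Lamp1 were nearest to each other (0.108), as were Hexa and Npc2 (0.123), and the nearest to Ctsl was Ctsb (0.329). Each had many nearer genes outside the 8: in nearness among all genes, Lamp1 stood at rank 219 for Ctsb and Ctsb at 153 for Lamp1, Npc2 at 62 for Hexa and Hexa at 66 for Npc2, and Ctsb at 669 for Ctsl. The closest rank within the 8 was that of Ctsa for Gusb, at 19 (0.173).

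Many lysosomal genes are abundant in macrophages, so markers of other cells were read beside these values. Of 19 macrophage genes only Tyrobp was listed, at 9.27 to 15.0 normalized counts in FoxP1iSkmTg and 16.4 to 35.4 in Control muscle, lower in every FoxP1iSkmTg mouse without passing the test (log2 fold change -0.96, edgeR adjusted p = 0.0543). Of 5 neutrophil genes only S100a9 was listed, with 1.03 to 5.04 normalized counts in FoxP1iSkmTg and 7.38 to 17.5 in Control muscle, too few for the test. Of 7 endothelial genes none was listed, and the macrophage genes other than Tyrobp were not analysed here. Of 6 satellite cell genes Itga7, an integrin that muscle fibres also carry, was listed and was higher, at 2335 to 2891 normalized counts in FoxP1iSkmTg and 1546 to 1818 in Control muscle (log2 fold change 0.69, edgeR adjusted p = 0.000163). Of 5 adipocyte genes Plin1 was listed (log2 fold change 0.97, edgeR adjusted p = 0.230) and of 11 fibro-adipogenic genes Cd34 (-0.21, 0.190), and neither passed. In the same muscles Lgmn and Ctsa were higher and Ctsl, Ctsb and Ctsc lower, and the part of other cells in these values was not tested.

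**Figure D4:**
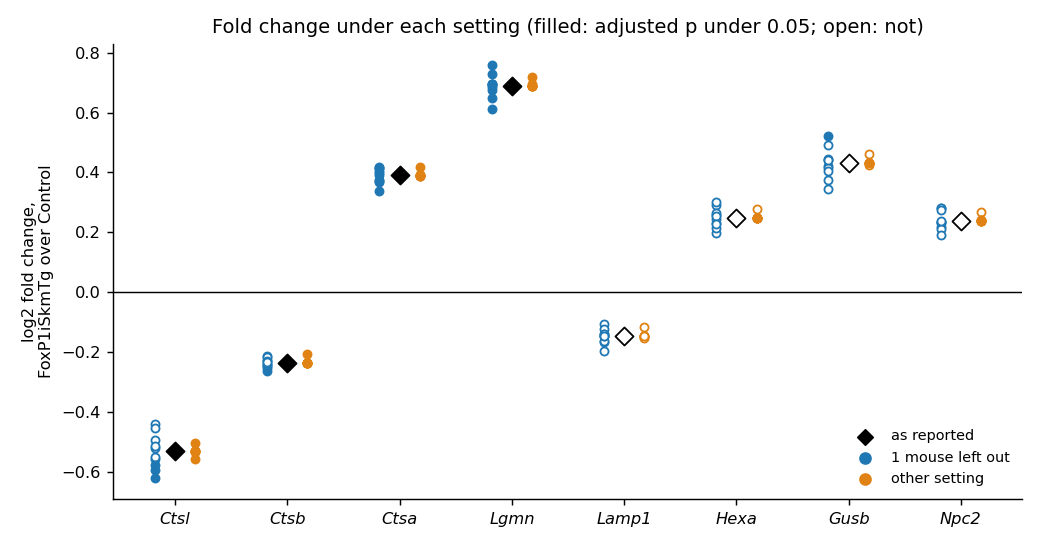
Log2 fold change, FoxP1iSkmTg over Control (vertical axis), of the 8 genes as reported (diamonds), with 1 mouse left out (left points) and under the other settings (right points); filled points passed an adjusted p of 0.05. No gene changes sign, Ctsa and Lgmn are filled throughout, Lamp1 is open throughout, and Ctsl and Ctsb have both filled and open points.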

How the data were processed

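Poly-A RNA of TA muscle from 10 mice was sequenced as paired ends. Read counts per gene were deposited by the authors, with normalized counts (a signal: counts divided by a size factor per library), FPKM and the length of each gene. The submitters' processing notes name HISAT2 2.0.5, DESeq2 1.20.0 and mm10, whereas the methods name STAR and HTSeq, so the aligner is not settled here. The authors' fold change and p-value columns were not used as results. Their p-values served only to learn that the table is a selection of 3480 genes with an unadjusted p under 0.05, and over how many genes (15846) they were adjusted.

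Counts were tested with edgeR 4.0.16 (quasi-likelihood F test, two-sided, R 4.3.3), scaled by the size factors behind the deposited normalized counts, on genes passing filterByExpr (minimum count 10), with Benjamini-Hochberg adjustment over 15846 genes, taking genes not listed as having larger p-values. Of these steps, the edgeR fit alone was tried on simulated counts, which did not imitate the selection of genes by p. Ratios of counts were compared by exact permutation of mice. Alternatives were other scalings, DESeq2 1.42.0, no filter, a minimum count of 50, adjustment over tested genes alone, a replicate block, a pseudocount of 1 for ratios, and each mouse left out.

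Members and gene lists were chosen with earlier results of these data known. Named were all 8 genes, Foxp1, listed lysosomal genes that passed and up to 3 others per list with the smallest p, and the nearest gene to each member. Genes overlapping a member and the cell type markers were added. The counts of the selected genes do not give a library's full depth, and intervals for levels rest on the spread between mice.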

Additional observations from a re-analysis of the deposited data

Results flagged for a closer look

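In 6 of the 74 groups of 5 mice examined over the named genes, 1 mouse lay far from the rest by Dixon's criterion, where chance alone gives about 3.7. Npc2, the cholesterol carrier, had 488.7 normalized counts in FoxP1iSkmTg replicate 5, with the next lowest mouse of that group at 563.6. Among the other lysosomal genes, the carboxypeptidase Scpep1 had 150.4 in FoxP1iSkmTg replicate 3 (next highest 122.1), the adaptor subunit Ap3b1 594.6 in FoxP1iSkmTg replicate 5 (next highest 526.1) and Mtor 1072 in FoxP1iSkmTg replicate 1 (next lowest 1186). In Control mice, the sorting receptor Sort1 had 1675 in replicate 4 (next highest 1420) and the cystatin Cst6 193.9 in replicate 3 (next lowest 228.3). None of these genes passed the test between the groups.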

How the results depend on the processing

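No fold change of the 8 genes and no ratio changed direction under any alternative run. Adjusted over the tested genes alone, which ignores that the table is a selection, 2979 genes passed (1497 higher, 1482 lower), as did 7 of the 8 genes, among them Hexa (log2 fold change 0.25, adjusted p = 0.0210), Gusb (0.43, 0.0154) and Npc2 (0.24, 0.0244), and 32 other lysosomal genes. DESeq2 called 13 other lysosomal genes in place of 7, and Gusb at 0.43. With 1 mouse left out, the tested genes that passed ranged from 835 to 1229 (372 to 592 higher, 447 to 637 lower), the members from 2 to 4 and the other lysosomal genes from 4 to 10. There were 2 members without FoxP1iSkmTg replicate 1 or Control replicate 1, 2 or 4, and 4 other lysosomal genes without Control replicate 4. Over the same omissions the log2 fold change was -0.62 to -0.44 for Ctsl, -0.26 to -0.21 for Ctsb and 0.35 to 0.52 for Gusb, and the difference in the log2 ratio of Ctsl to Lamp1 was -0.47 to -0.35. The cause of these changes was not tested.

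Replicate numbers did not pair the mice: mice of equal number had deviations with correlations from -0.0227 to 0.0287, and the best match was the equal number in 0 of 5 cases. Under the replicate block 907 genes passed in all, and Ctsb no longer did (log2 fold change -0.24, adjusted p = 0.0811), nor did Hgsnat (adjusted p = 0.0528) or Gnptab (0.0750), while Abca2 (0.0381), Cst3 (0.0234) and Sort1 (0.0419) now passed, making 8 other lysosomal genes. Precision is limited by 5 mice per group.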
